A study of Caenorhabditis elegans with 6 samples.

Results

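At 13 tRNA genes whose own transcript had at most 1 count in any sample of *Caenorhabditis elegans* under RNAi against RNA polymerase III (Pol III), the ncRNA annotated on the opposite strand was counted in every sample at 11. These 13 antisense ncRNAs, of 2526 short transcripts in the table, are described here. Summed over the 13, they had 45895 ± 16615 normalized counts (SD, n = 3) in worms treated with *rpc-1* RNAi and 44667 ± 7020 (SD, n = 3) in vector controls. The difference of 1228 was smaller than the spread between replicates, and it was -8353 without *rpc-1* RNAi replicate 1. It was also below 0, at -6765, when all samples were scaled without tRNAs and their antisense ncRNAs.

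An ncRNA was a member if it overlapped a tRNA gene of the same genomic clone on the opposite strand, and if that tRNA had counts in at least 1 control and 3 or fewer in every RNAi sample. The members were thus chosen by the counts of the opposite tRNA in the same comparison. What follows for the ncRNAs is a description of their levels, and the test calls on them are read in that light. The 13 were taken as a given list: 22 ncRNAs of the table met these conditions, and the other 9 are given further on.

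tRNAs carry amino acids to the ribosome, and Pol III makes them from promoters that lie inside the gene. A precursor with a short leader and trailer is cut at both ends to give the mature tRNA, which folds on itself and is heavily modified. In the worm genome many tRNA genes have a short ncRNA annotated across them on the other strand, named after the clone and to which the annotation gives no role. Nor does it name the polymerase that would make such an RNA.

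Both groups were whole worms of the wild-type strain Bristol N2 on day 2 of adulthood, raised on bacteria and moved at the last larval stage to bacteria carrying an RNAi clone or not. The *rpc-1* RNAi worms (3 samples) ate bacteria with the clone against *rpc-1*, which encodes the largest subunit of Pol III. The vector controls (3 samples) ate bacteria with the empty vector. In both, RNAs shorter than 200 nucleotides were selected and demethylated before sequencing, and each sample was a pool of worms. Both groups were raised and treated as in the lifespan assays, whose plates held the DNA synthesis inhibitor FuDR unless otherwise specified. The paper states that this RNAi lowers the *rpc-1* mRNA in part. That mRNA is too long for this table, so the knockdown was not measured here. The estimated counts summed to between 19386526 and 21685824 in the RNAi samples and between 9362216 and 18464616 in the controls, with vector control replicate 2 the shallowest. Normalized counts are these counts divided by DESeq2 size factors. In RNA of whole worms, less RNA per cell and fewer cells with the RNA cannot be told apart.

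The opposite tRNAs fell into 7 isotypes: 4 read arginine codons, 3 serine and 2 aspartate, and 1 each read asparagine, glutamine, leucine and valine codons. The rule fixed their counts in RNAi. Of the 13 tRNAs, 11 had 0 counts in every RNAi sample, and the members nearest to the threshold were C38C6.9 and F57G8.12, whose tRNAs had 1, 0 and 1 and 0, 0 and 1 RNAi counts. Just outside it, F21A3.t1 had 0, 0 and 6 RNAi counts against 4, 0 and 0 in controls. The tRNAs were not all present in controls either: 9 of the 39 control values were 0, of which 6 were in vector control replicate 2, and only 6 of the 13 tRNAs had counts in all 3 controls.

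The members lay on chromosomes X (5), V (4), IV (2), I (1) and II (1) of WBcel235, 8 on the plus and 5 on the minus strand. They were 71 to 96 bases long, against 72 to 82 bases for the tRNA genes. In 12 of the 13 the ncRNA spanned the whole tRNA gene. These 12 reached 8 to 18 bases past the 3′ end of the tRNA gene and 1 to 9 bases past its 5′ end, and in each the longer side was at the 3′ end of the tRNA. The exception was F38E9.10, which covered 66 of the 73 bases of the arginine tRNA gene F38E9.t2 and stopped 7 bases short of its 3′ end. Among the other 319 ncRNAs antisense to tRNA genes or tRNA pseudogenes, 303 spanned the whole gene and 262 reached further past its 3′ end. The median reach of those 303 was 11 bases past the 3′ end and 5 past the 5′ end, beside 11 and 3 in the members. The layout of the members was thus close to that of the class. Of the 13, 6 lay outside protein-coding genes and 7 inside one. In 6 of these 7 the ncRNA was on the strand opposite to that gene, and only the ncRNA opposite the aspartate tRNA Y54G2A.t1 overlapped an exon.

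**Figure D1:**
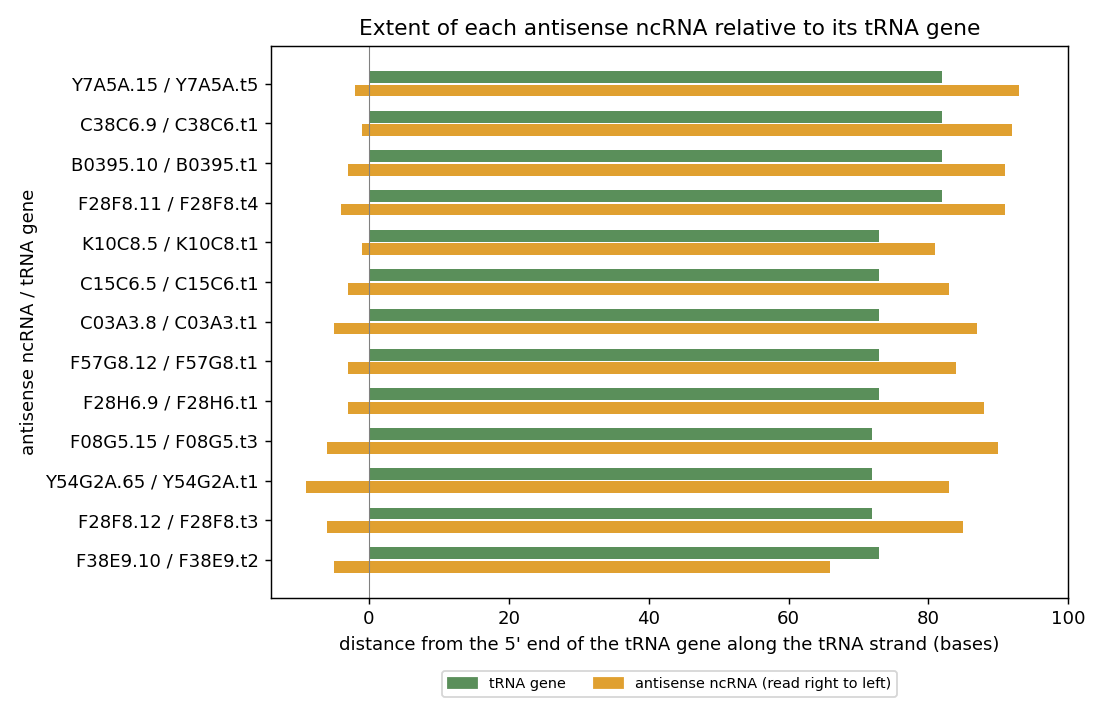
Each pair of bars shows a tRNA gene (green) and its antisense ncRNA (orange) in bases from the 5′ end of the tRNA gene, along the tRNA strand. In 12 of 13 loci the orange bar covers the whole green bar and reaches further on the right, the 3′ side of the tRNA; F38E9.10 stops 7 bases short.

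The members differed widely in level. F28H6.9 and C15C6.5 averaged 14300.2 and 11518 over the 6 samples, F57G8.12 averaged 7705, and F38E9.10 averaged 0.575. In all, 11 members had counts in each of the 6 samples and averaged at least 100, the ncRNA opposite Y54G2A.t1 averaged 17.2, and F38E9.10 was near 0. Replicate 1 was the highest RNAi sample for 8 and the highest control for 7 of the 12 members that averaged at least 10.

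**Figure D2:**
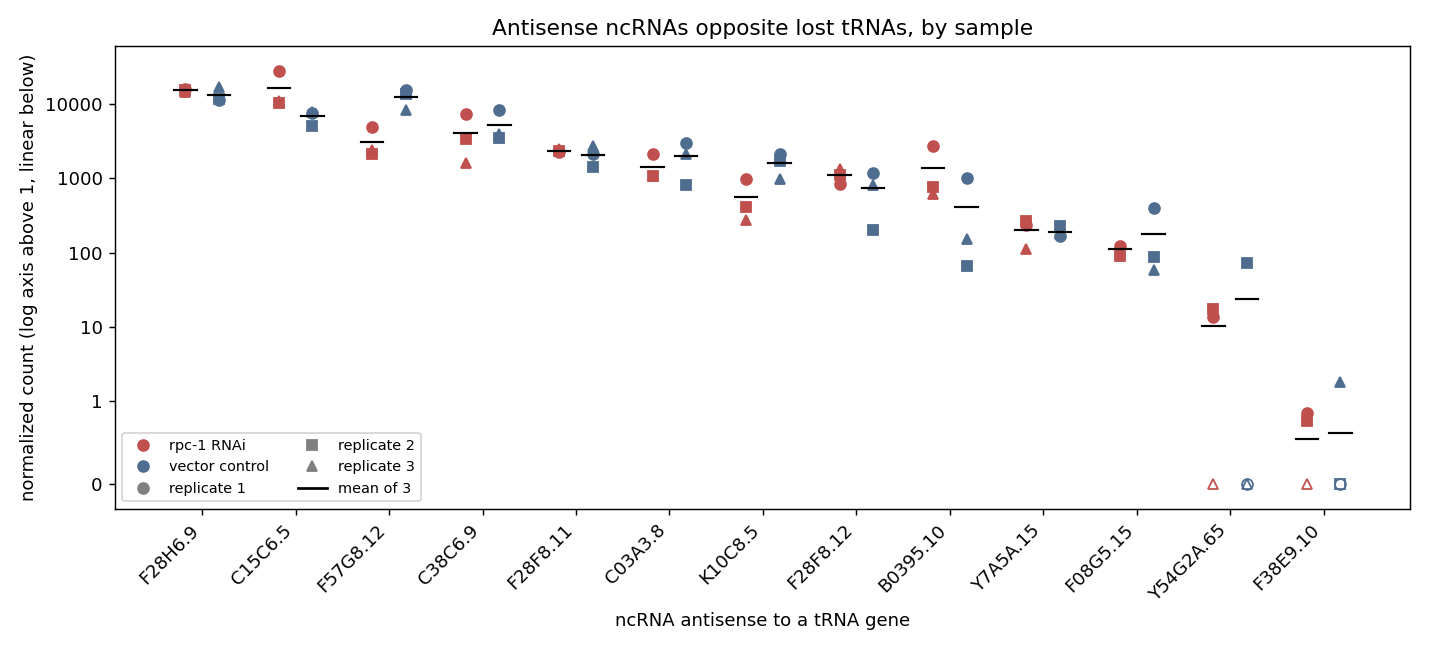
Normalized counts of the 13 antisense ncRNAs in 3 *rpc-1* RNAi samples (red, left of each pair) and 3 vector controls (blue, right), with a marker for each replicate, on an axis that is logarithmic above 1 and linear below. Black bars are means, and open markers are samples at 0. Only F57G8.12 (lower in RNAi) and C15C6.5 (higher in RNAi) separate the groups.

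DESeq2 called 1 member lower and 0 higher at 10% FDR, of the 12 with an adjusted p (2 had an unadjusted p under 0.05). Over all 1083 transcripts tested, 4.16% were called lower and 3.14% higher, 7.29% in all. edgeR's quasi-likelihood test also called 1 member lower and 0 higher, where 3.77% of 796 transcripts were lower and 3.39% higher, 7.16% in all. Same-numbered control and RNAi samples deviated together, least so for replicate 2, though the labels state no pairing. With the replicate number as a block DESeq2 called 4 of the 12, 2 lower and 2 higher. With that block 14.9% of the 959 transcripts tested were called lower and 14.1% higher, 29.0% in all. Since the rule drew on the same contrast, nothing is read from these shares. Of the 12 members, 6 were above and 6 below 0, with a median log2 fold change of -0.12, beside 0.00 over all transcripts tested. With the block 7 were above and 5 below 0, and the median turned to 0.11, beside 0.10 over all transcripts.

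F57G8.12 (chromosome V, 16338545 to 16338631, minus strand), opposite the asparagine tRNA F57G8.t1, was the member called lower. It had 4801, 2132 and 2367 normalized counts in RNAi replicates 1, 2 and 3, against 15195, 13423 and 8309.9 in vector control replicates 1, 2 and 3. Every RNAi sample was below every control, a separation seen in 8.22% of the 1083 transcripts in this direction. The log2 fold change was -1.99 ± 0.69 (SE, DESeq2 adjusted p 0.0558). With the replicate block it was -2.04 ± 0.34 (SE, DESeq2 adjusted p 2.33e-08, edgeR adjusted p 0.0244). The call with the group only hung on single samples. Without *rpc-1* RNAi replicate 2 or 3 the adjusted p of DESeq2 was 0.294 and 0.171, while the log2 fold change stayed at -1.79 and -1.82. Without *rpc-1* RNAi replicate 1 the log2 fold change was -2.46 (DESeq2 adjusted p 3.26e-05). Its tRNA had 3958, 0 and 1473 normalized counts in controls, less than the ncRNA in each. The difference between group means in the ncRNA, -9209 normalized counts, was larger in size than the whole control level of the tRNA, 1810 ± 2001 (SD, n = 3). The 2 other asparagine tRNAs of the same anticodon in the table together had 61, 72 and 87 counts in RNAi and 24, 12 and 21 in controls, before scaling. Such sums differed among loci. The 2 others with the anticodon of C15C6.t1 had 16887, 7381 and 8459 in RNAi and 44603, 4935 and 93602 in controls. The 4 others with that of C38C6.t1 had 141, 196 and 28 in RNAi and 309782, 20290 and 76332 in controls. Whether reads were assigned to another copy was not tested.

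K10C8.5 (chromosome V, 12683343 to 12683424, plus strand), opposite the valine tRNA K10C8.t1 and in an intron, on the same strand, of *frpr-15*, a predicted neuropeptide receptor gene, had a like pattern at a lower level. It had 986, 411 and 270.1 normalized counts in RNAi, against 2133, 1685 and 970.1 in controls. The groups touched, since RNAi replicate 1 was just above vector control replicate 3. The log2 fold change was -1.52 ± 0.77 (SE, DESeq2 adjusted p 0.363), so the member did not pass the threshold. With the replicate block it did, at -1.66 ± 0.34 (SE, DESeq2 adjusted p 8.71e-06, edgeR adjusted p 0.0468). The ratio of RNAi to control was 0.462, 0.244 and 0.278 in same-numbered pairs. K10C8.5 also passed without *rpc-1* RNAi replicate 1, at -2.23. Its tRNA was scarce in controls, with 1089.8, 39.9 and 0 normalized counts.

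C15C6.5 (chromosome I, 12198600 to 12198685, minus strand), opposite the arginine tRNA C15C6.t1, lay on the other side. It had 27579, 10183 and 10961 normalized counts in RNAi, against 7491, 5046 and 7851 in controls. All 3 RNAi samples were above all 3 controls, as in 10.6% of the 1083 transcripts. DESeq2 gave 1.26 ± 0.71 on the log2 scale (SE, adjusted p 0.488), which missed the threshold, and 1.12 ± 0.40 (SE, adjusted p 0.0239) with the block. edgeR with the block, a fit chosen after seeing the data, gave an adjusted p of 0.140. RNAi replicate 1 carried much of the difference: without it the log2 fold change was 0.63. The tRNA had 8266, 826 and 17682 normalized counts in controls. The RNAi sample had 20088, 5137 and 3110 more normalized counts of the ncRNA than its same-numbered control. Between group means the difference was 9445, or 106% of the control mean of the tRNA, 8925. On leaving out single samples, that share ran from 42.3% to 219%. Whether reads moved between strands was not tested. Both strands together averaged 16241 ± 9827 (SD, n = 3) in RNAi and 15720.7 ± 9830.2 (SD, n = 3) in controls, with partly overlapping ranges.

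B0395.10 (chromosome X, 16042599 to 16042692, plus strand), opposite the serine tRNA B0395.t1, had 2715, 752 and 612 normalized counts in RNAi, against 1011, 65.9 and 154 in controls. The groups overlapped because vector control replicate 1 was above RNAi replicates 2 and 3. Within same-numbered pairs the RNAi sample was 2.69, 11.4 and 3.97 times its control. The log2 fold change was 1.73 ± 1.09 (SE, DESeq2 adjusted p 0.591), and 2.27 ± 0.54 (SE, DESeq2 adjusted p 0.00025, edgeR adjusted p 0.0468) with the block. It was 3.62 without vector control replicate 1 and 0.72 without *rpc-1* RNAi replicate 1, so its size hung on single samples. The tRNA had 2979, 968 and 1316 normalized counts in controls, above the ncRNA in each.

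The most abundant member differed by less than its spread. F28H6.9 (chromosome X, 14115688 to 14115778, minus strand), opposite the arginine tRNA F28H6.t1, had 16012, 15416 and 14630.3 normalized counts in RNAi, against 11343, 11771 and 16629 in controls. All 3 RNAi samples lay within the range of the controls, and the log2 fold change was 0.21 ± 0.59 (SE). Its tRNA had 0 counts in RNAi, against 32622, 8129.8 and 82544 normalized counts in controls, a wide spread beside the even level of the ncRNA.

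F28F8.12 and F28F8.11 lie in the same clone, opposite different tRNA genes. F28F8.12 (chromosome V, 15551786 to 15551876, plus strand) is opposite the aspartate tRNA F28F8.t3, in an intron of *acr-18*, which encodes an acetylcholine receptor subunit. It had 837, 1107 and 1337 normalized counts in RNAi, against 1182, 204 and 813 in controls, with a log2 fold change of 0.58 ± 0.80 (SE). The samples of the 2 groups were interleaved apart from the low vector control replicate 2, in which the tRNA also had 0 counts. F28F8.t3 had 15486, 0 and 1679 normalized counts in controls, so at this locus the tRNA was in large excess over the ncRNA in vector control replicate 1 and below it in replicate 2. F28F8.11 (chromosome V, 15547866 to 15547960, plus strand), opposite the serine tRNA F28F8.t4, had 2234, 2315 and 2438 normalized counts in RNAi, against 2137, 1409 and 2675 in controls. Its log2 fold change was 0.17 ± 0.62 (SE), and the RNAi values lay inside the control range. F28F8.t4 had 1228, 166 and 196 normalized counts in controls, below the ncRNA in every sample.

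C38C6.9 (chromosome II, 14635325 to 14635417, plus strand), opposite the leucine tRNA C38C6.t1 and in an intron of the chemoreceptor gene *sre-13*, had 7389, 3358 and 1587 normalized counts in RNAi, against 8143, 3421 and 3883 in controls. Each RNAi sample was below its same-numbered control, by little in pairs 1 and 2 (ratios 0.907 and 0.982) and more in pair 3 (0.409). C03A3.8 (chromosome X, 11252576 to 11252667, plus strand), opposite the arginine tRNA C03A3.t1, had 2134, 1086 and 1064 normalized counts in RNAi, against 2953, 818 and 2096 in controls. The groups overlapped in both ncRNAs, with log2 fold changes of -0.32 ± 0.81 and -0.45 ± 0.76 (SE). C03A3.t1 had counts in vector control replicate 3 alone, 2863 when normalized, while C03A3.8 was highest in vector control replicate 1.

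Y7A5A.15 (chromosome X, 15769998 to 15770092, plus strand), opposite the serine tRNA Y7A5A.t5, had 234, 262 and 111 normalized counts in RNAi, against 169, 226 and 179.9 in controls. Its tRNA was at 0 in 2 of the 3 controls, so in those it had the same all-antisense counts as in RNAi. F08G5.15 (chromosome IV, 12416924 to 12417019, plus strand), opposite the glutamine tRNA F08G5.t3, had 122, 90.5 and 120.1 normalized counts in RNAi, against 393, 87.8 and 58.7 in controls. The log2 fold changes were 0.08 ± 0.68 and -0.70 ± 0.89 (SE), with overlapping groups. F08G5.t3 is the reverse case to F57G8.t1: it had 36289 and 6059 normalized counts in vector control replicates 1 and 3, far above its antisense partner, and 0 in replicate 2.

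The remaining pair carried almost no counts. F38E9.10 (chromosome X, 16461472 to 16461542, minus strand) had 1, 1 and 0 counts in RNAi and 0, 0 and 2 in controls before scaling, at or under a floor of 3 counts in every sample. Its tRNA F38E9.t2, an arginine tRNA within the astacin protease gene *nas-39*, had 70496, 6201 and 24418 counts in controls. The ncRNA opposite the aspartate tRNA Y54G2A.t1 (WBGene00199591; chromosome IV, 2800090 to 2800181, minus strand) had 16, 23 and 0 counts in RNAi and 0, 36 and 0 in controls. Its log2 fold change had an SE of 3.71, so no direction could be given. Y54G2A.t1 had 278, 236 and 215 counts in controls, and neither locus had antisense counts near the tRNA's.

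**Figure D3:**
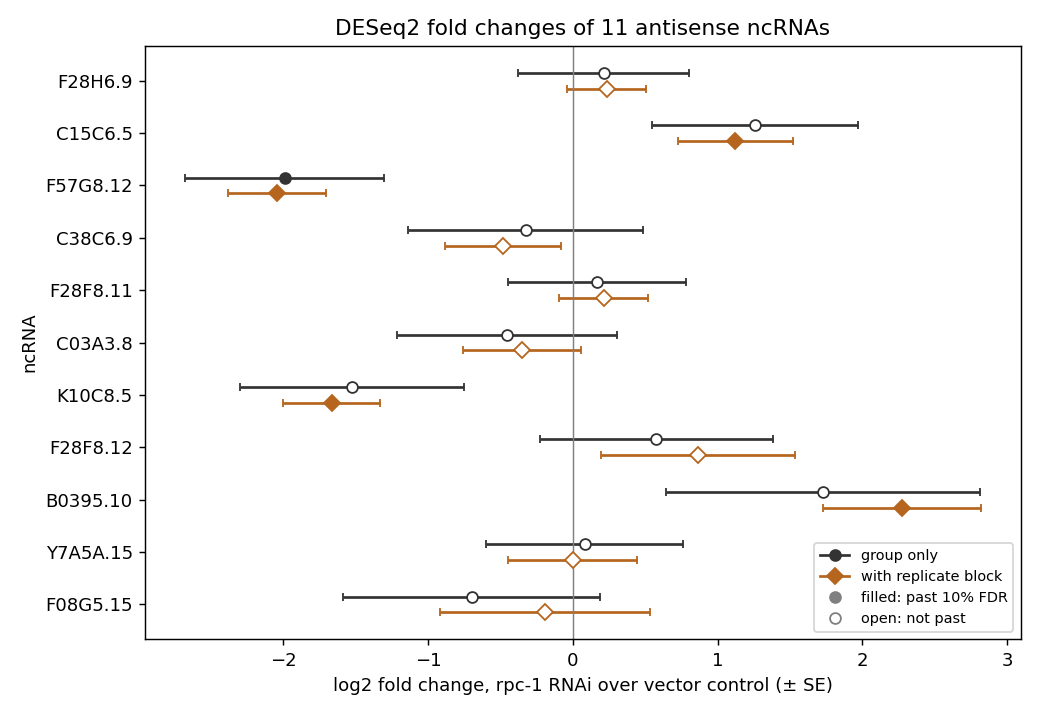
DESeq2 log2 fold changes (*rpc-1* RNAi over vector control) with their SE for the 11 antisense ncRNAs that averaged at least 100 normalized counts, from the fit with group only (circles) and with the replicate block (diamonds). Filled symbols are past 10% FDR: F57G8.12 in both fits, and C15C6.5, K10C8.5 and B0395.10 with the block only.

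How the counts of both strands add up at each locus bears on read assignment, because Salmon divides reads among transcripts that share sequence and the sources used here do not state whether it used the strand of the reads. Summed over the 13 loci, the opposite tRNAs averaged 0.759 ± 0.716 normalized counts in RNAi, against 111470 ± 78870.3 in vector controls (SD, n = 3 each). With the ncRNAs added, the loci averaged 45896 ± 16616 in RNAi and 156137 ± 85343 in vector controls (SD, n = 3 each). Of the counts at these loci the antisense ncRNAs took 99.999%, 100% and 99.996% in RNAi replicates 1, 2 and 3, a share the rule fixed. In vector control replicates 1, 2 and 3 they took 23.0% (Wilson 95% confidence interval 22.9 to 23.2), 62.5% (61.9 to 63.0) and 24.1% (24.0 to 24.3). These intervals cover counting error only. The split of assigned counts between ncRNAs and tRNAs therefore already differed among controls.

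The sum of both strands contains the tRNA counts that the rule required to be present in controls and nearly absent in RNAi, so it was pushed lower in RNAi by the choice of members and is given as a description. The ratio of group means of the sum, RNAi over control, ran from 1.57e-05 at F38E9.10 and 0.00777 at F08G5.15 to 0.894 at F28F8.11 and 1.03 at C15C6.5. It was 0.220 at F57G8.12 and 0.282 at K10C8.5, where the ncRNA also had the lower mean in RNAi. The difference in the ncRNA beside the control level of its tRNA depended on the samples used at several loci. At F28F8.12 it came to 6.30% of the tRNA mean, and to 69.7% without vector control replicate 1. At F28H6.9 it came to 5.12%, and to 18.6% without vector control replicate 3. At B0395.10 it came to 54.1%, and to 15.5% without *rpc-1* RNAi replicate 1. At C15C6.5 it came to 106%, to 42.3% without *rpc-1* RNAi replicate 1 and to 219% without vector control replicate 3. At F28F8.11 it came to 48.1%, to -10.8% without vector control replicate 2 and to 158% without vector control replicate 1. It was below 0 at F57G8.12, K10C8.5, C03A3.8, C38C6.9, F08G5.15, F38E9.10 and the ncRNA opposite Y54G2A.t1. Whether reads moved between strands at any of these loci was not tested.

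**Figure D4:**
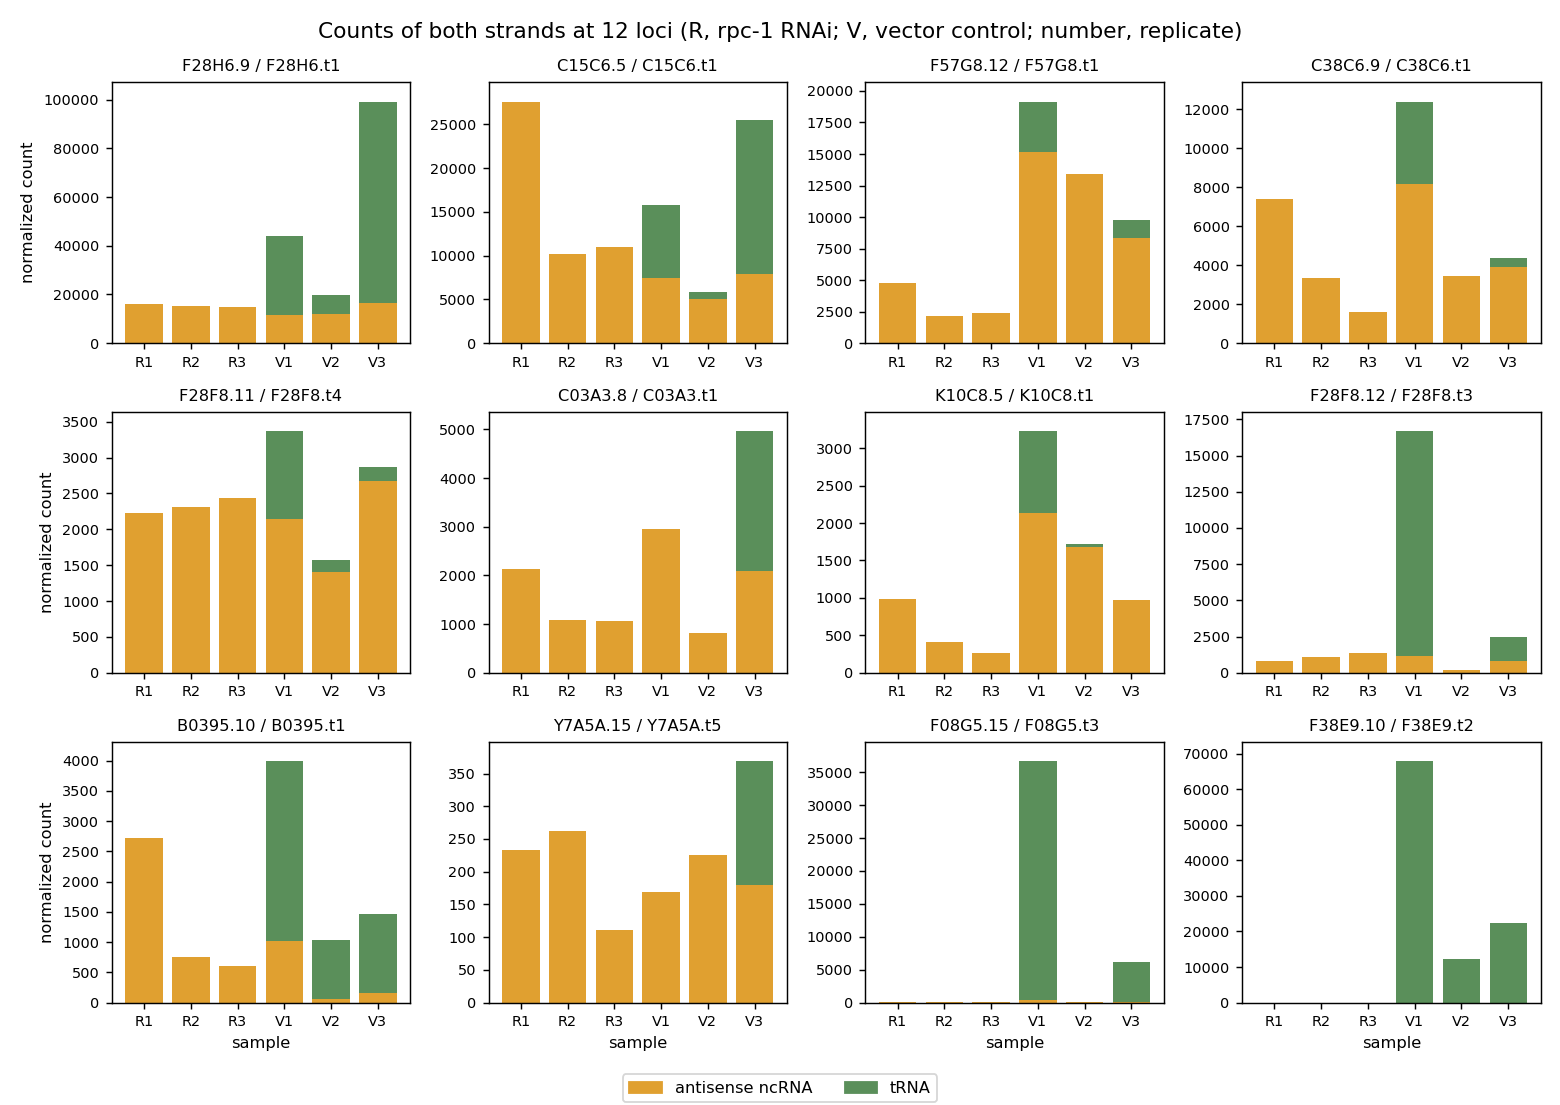
Stacked normalized counts of the antisense ncRNA (orange) and the opposite tRNA (green) in each *rpc-1* RNAi sample (R1 to R3, left) and vector control (V1 to V3, right) at 12 of the 13 loci, each panel on its own linear axis from 0 (the Y54G2A locus is left out for its low counts). Green is missing from all RNAi bars by the rule and from several control bars, such as V2 at F57G8.12 and F28F8.12, while orange persists at 11 loci.

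Some vector controls also had the tRNA at 0. In the 9 such values, spread over 7 loci, the antisense ncRNA had counts each time. F57G8.12 was the clearest case, with 13423 normalized counts in vector control replicate 2 beside 0 for its tRNA. Of the 9 values, 6 were in vector control replicate 2, the shallowest sample. Some antisense counts beside them were low, with 44 for F08G5.15 and 102 for F28F8.12 in that replicate, before scaling. A tRNA count of 0 beside antisense counts was therefore found in both groups, at levels that differed widely.

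The 9 ncRNAs that met the written conditions but were not in the list were T22C8.9, ZK617.10, ZK678.11, ZK783.8, B0491.11, F46F2.11, C04C11.8, Y106G6D.10 and Y95D11A.4. Of these, 8 could be tested by DESeq2. With the group only it called 0, 0 of them had an unadjusted p under 0.05, and each of the 8 log2 fold changes was below 0, with a median of -0.77. With the replicate block it called 4 lower and 0 higher (ZK678.11, ZK783.8, B0491.11 and F46F2.11), and 6 of the 8 were below 0. Over all 959 transcripts tested with the block, 14.9% were called lower and 14.1% higher. The 9 met conditions drawn from the same contrast, so nothing is read from these shares. ZK783.8 had 2395, 1998 and 1480.1 normalized counts in RNAi, against 4140.5, 3934 and 2619 in controls. ZK678.11 had 759, 905 and 759 in RNAi, against 1364, 1463 and 1059 in controls. These 2 were lower in RNAi without overlap, as were 8.22% of the 1083 transcripts tested with the group only. F46F2.11 and B0491.11 were lower in each same-numbered pair with overlapping groups. For the 20 tested of the 22, the median was -0.58, with 6 above and 14 below 0. The split of the 13 was therefore not that of the full set. B0491.11 had the lowest value of the 9, -2.02, with 1654, 193 and 131 counts in RNAi against 5545, 113 and 1268 in controls, before scaling.

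Among the other 319 ncRNAs antisense to tRNA genes, 301 had an adjusted p. DESeq2 called 11 of these lower and 17 higher, with a median log2 fold change of -0.24 and 120 above 0 against 181 below. That was 9.30% of the class, beside 8.33% of the members, and 38.4% beside 33.3% with the block. Of all 332 antisense ncRNAs in the table, members included, only 59 had their tRNA in the table as well. For the rest, the condition on the tRNA counts could not be judged, so the class is not like the members in this. Whether the members differed from this class was not tested.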

How the data were processed

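Short RNA from 3 *rpc-1* RNAi and 3 vector control samples was analysed; groups and replicate numbers came from the titles. The authors made the deposited estimated counts by trimming reads with Cutadapt, quantifying them with Salmon against the WBcel235 transcripts (the genome served as decoy sequence), and importing the short ones with tximport. Libraries were made with a TruSeq Nano kit. The deposited estimated counts were whole numbers, so rounding changed 0 of them. Positions, strands and overlaps came from the Ensembl release 115 annotation of WBcel235, which held 2506 of the 2526 transcripts, and isotypes from the study's list of tRNAs. An overlap counted from 40 bases. No genome sequence was used. The labels do not say that samples came from separate cultures, so p-values measure the spread between these samples, which may be technical.

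Differences were tested by DESeq2 1.42.0 (Wald test, R 4.3.3), with default size factors and filtering and only the group in the model, fitted to the whole table. Calls were made at 10% FDR (Benjamini-Hochberg). Deviations of same-numbered samples from their group means correlated at 0.55, 0.20 and 0.40 across 817 transcripts (log2 of the normalized count + 1, mean at least 10). Differently numbered samples ran from -0.41 to 0.14, the latter for RNAi replicate 2 with control replicate 3. The numbers were therefore taken to pair the samples, which no label states, and a fit with the replicate block is given too. That pairing was drawn from the same counts. Other settings tried were the quasi-likelihood test of edgeR 4.0.16 with TMM, other size factors, other count filters, summed strands, 5% FDR and leaving out each sample. Both tools were also run on simulated counts that held no replicate pairs and no reads shared between transcripts. That run says nothing on the calls given here. Loci were summed without a test. All 13 members and their tRNAs are named. The members and lists were chosen with earlier results of these data known.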

Additional observations from a re-analysis of the deposited data

How the results depend on the processing

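The number of transcripts called by DESeq2 was 79. It was 278 with the replicate block, 128 with total-count size factors, 124 with strands summed at each locus, 147 in edgeR with the replicate block (chosen after seeing the data), and 74 to 180 on leaving out single samples (180 without *rpc-1* RNAi replicate 1). The 45 lower and 34 higher calls became 59 and 69 under total-count size factors, which shifted the median of all transcripts to 0.17 (-0.22 with size factors without tRNAs and their antisense ncRNAs). The 1 lower member became 0 at 5% FDR and in edgeR without a count filter, 2 with the replicate block (by DESeq2 and by edgeR), and 0 to 2 on leaving out single samples. The 0 higher members became 1 (C15C6.5) once size factors were total counts, 2 by DESeq2 under the replicate block, 1 by edgeR under it, and 0 to 1 on leaving out single samples. The fall of F57G8.12 kept its direction in every fit, from -2.46 to -1.79 with one sample left out.

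The median of the members, -0.12, turned to 0.11 with the replicate block, 0.13 in edgeR with it and 0.03 under total-count size factors, and ran from -0.41 to 0.14 with one sample left out. Of the 13 members, 6 changed sign in at least 1 setting. F28F8.11 was at -0.10 and Y7A5A.15 at -0.10 with size factors without tRNAs and their antisense ncRNAs. The ncRNA opposite Y54G2A.t1 was at 0.60 with the replicate block and 0.44 in edgeR with it, and F38E9.10 at 0.24 with the block. With one sample left out, C38C6.9 ran from -1.06 to 0.17, F08G5.15 from -1.17 to 0.60, F28F8.11 from -0.025 to 0.35, Y7A5A.15 from -0.16 to 0.37, F38E9.10 from -0.90 to 1.03 and the one opposite Y54G2A.t1 from -1.81 to 5.94. With one sample left out, the summed antisense difference of 1228 ran from -8353 (without *rpc-1* RNAi replicate 1, when both remaining RNAi sums lay below every control) to 6427. With all samples it was 6043 under total-count size factors, and -6765 with size factors without tRNAs and their antisense ncRNAs. It was -877 without F28H6.9. With an overlap of 1 base in place of 40, 22 ncRNAs still met the written conditions. Sequences shared between copies were not compared, since no genome was used. The cause of these shifts was not tested.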
